A study of Mus musculus with 3 samples.

Results

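The genes of the mitochondrial respiratory chain were followed across 3 cell fractions sorted from mouse olfactory epithelium. They were taken from the genes whose platform symbol begins with Nduf, Sdha, Sdhb, Sdhc, Sdhd, Uqcr or Atp5. Symbols that begin with Cox and a digit from 4 to 8 were added, together with Cycs and Cyc1. Only probe sets with a single symbol were used, so genes such as Ndufs6 and Ndufa11, whose probe sets carry several symbols, were left out. This gave 96 of the 18193 genes on the array, carried by 190 probe sets. Of these, 34 encode subunits of complex I, 4 of complex II, 9 of complex III, 18 of complex IV and 17 of complex V. A further 8 are assembly factors of complex I and 4 are assembly factors of complex II. Cytochrome c (Cycs) and the supercomplex factor Cox7a2l make up the remainder. Each gene was represented by its probe set with the highest mean signal, and 94 of the 96 genes passed the detection floor on at least 1 array.

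The respiratory chain sits in the inner mitochondrial membrane. Complex I takes electrons from NADH and complex II from succinate; complex III passes them to cytochrome c, complex IV passes them to oxygen, and complex V makes ATP from the resulting proton gradient. Assembly factors build the complexes without remaining in them. Several complex IV subunits exist as pairs of genes, one active in most tissues and one typical of heart and skeletal muscle, testis or lung. Olfactory sensory neurons are produced throughout life from basal cells, and they spend ATP on growing axons and cilia while immature and on odour signalling once mature.

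Each fraction was sorted by FACS from Tgn1-2G transgenic mice, male and female, aged 5 to 8 days after birth. The GFP+++ fraction was 1000000 strongly fluorescent cells enriched in immature neurons. The GFP+ fraction was 1300000 weakly fluorescent cells, slightly enriched in mature neurons, and the GFP- fraction was 6800000 cells of all types, depleted of immature neurons. All fractions come from mice carrying the same transgene, whose promoter the labels do not name. A number of 32, without a unit, is given in the labels of each fraction.

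Total RNA of each fraction was hybridised to 1 array, so no difference has a replicate check and none was tested. The values are MAS5 signal intensities with the same mean on every array. Signals under 104, the median over all probe sets, were raised to that floor, and a gene was called at a fold of 2 or more. The number of arrays limits the precision. Probe sets of 1 gene differed in their log2 fold with a pooled SD of 0.30 for GFP+++ against GFP- over 4633 genes; for the respiratory chain genes alone it was 0.18 over 47 genes. This SD covers differences between probe sets on the same arrays. It holds nothing of error shared by a whole array, or of the spread between animals or sorts.

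The sort labels were checked against marker genes. The summed signal of 8 immature neuron markers (Gap43 and Gng8 among them) came to 73857 in GFP+++, 49834 in GFP+ and 61825 in GFP-. Of these 8, 6 had a log2 fold above 0 in GFP+++ against GFP- and 2 below, the lowest at -0.71. In GFP+++ against GFP+, 7 were above 0 and 1 below. In GFP+ against GFP-, 2 were above 0 and 6 below, with a median log2 fold of -0.24. By their sum, GFP- was depleted of immature neuron signal beside GFP+++ but not beside GFP+. The summed signal of 8 mature neuron markers (Omp and Cnga2 among them) came to 53409 in GFP+++, 77566 in GFP+ and 72566 in GFP-. Of those 8, 1 was above 0 and 7 below in GFP+++ against GFP-. Most lists of other cells were lower in the strongly fluorescent fraction, by unequal amounts. The 6 fibroblast markers summed to 2369 in GFP+++, 24836 in GFP+ and 40795 in GFP-. The 6 sustentacular markers summed to 33868 in GFP+++, 43798 in GFP+ and 61465 in GFP-. Respiratory ciliated cells were an exception, their 5 markers summing to 3788 in GFP+++, 4062 in GFP+ and 3400 in GFP-. The sum of 5 cell cycle genes came to 7678 in GFP+++, 13326 in GFP+ and 17959 in GFP-. In a bulk RNA sample, fewer cells of a type and less RNA per cell cannot be told apart. The 3 comparisons share arrays and are not independent of each other.

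Most of the respiratory chain differed little between the fraction enriched in immature neurons and the GFP- cells. Of 94 genes measured in GFP+++ against GFP-, 2 were at least 2-fold higher, Ndufb4 and Sdhaf3, and 2 were at least 2-fold lower, Cox8b and Cox6b2. Over all 12235 genes measured, 1.92% were called higher and 12.4% lower. At 1.5-fold, 6 of the 94 were higher and 2 lower, beside 9.31% and 20.5% of all genes. The 6 were Ndufb4, Sdhaf3, Atp5md, Cox8c, Ndufaf5 and Ndufaf6, and the 2 were again Cox8b and Cox6b2. Respiratory chain genes are bright: 64.6% were among the 1000 brightest genes, beside 5.50% of all genes. Bright genes in general had narrow folds. Quartiles of all genes between 5000 and 10000 units of mean signal were -0.10 and 0.24, beside -0.93 and 0.24 between 104 and 500. Calls were not counted by bin of signal. The median log2 fold of the respiratory chain genes was 0.09, against 0.01 for all genes. Of these folds 64.9% were above 0, beside 50.7% for all genes. The sign often depended on the probe set. Among 47 genes with another probe set above the floor on both arrays, 29 had 1 sign on all of them. In GFP+ against GFP- this held for 27 of 46 genes, and in GFP+++ against GFP+ for 34 of 46. With the arrays scaled to a common median, which moves the median of all genes to 0.42, 6 of 93 were called higher and 2 lower, beside 9.22% and 8.58% of all genes. Of all genes called, 48.2% were then lower, in place of 86.6%.

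**Figure D1:**
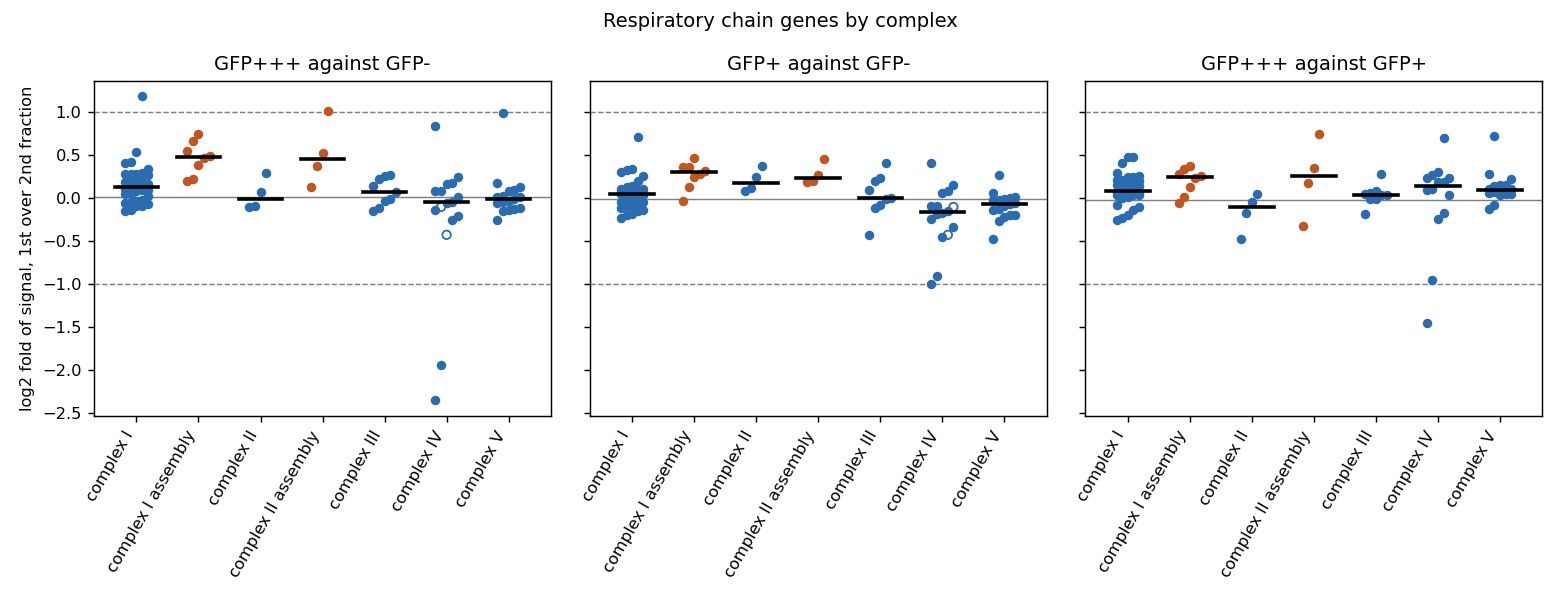
Each point is 1 gene; the vertical axis is the log2 fold of the first fraction over the second, and open circles are bounds because 1 array lay under the floor. Black bars are the medians of each complex, the grey line is the median of all genes and dashed lines mark 2-fold; orange points are assembly factors, which have a median of 0.48 for complex I and 0.45 for complex II in GFP+++ against GFP-.

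Promoters of the respiratory chain genes were read for the binding motifs of transcription factors known to act on many of them. RefSeq windows of 300 bases (build GRCm38.p6, 250 bases before the transcription start and 50 from it on) were available for 79 of the 96 genes. Those of a few genes follow, since Ndufb4 and Sdhaf3 were called higher, Cox8b and Cox6b2 were called lower, and Cox8a is the common partner of Cox8b. They were chosen after their values and matches were seen. Capitals mark matches on either strand to the NRF1 motif GCGCANGCG or the GABP or ETS motif CCGGAAGT, where N is any base.
Ndufb4 promoter, chr16:37654319-37654618, minus strand: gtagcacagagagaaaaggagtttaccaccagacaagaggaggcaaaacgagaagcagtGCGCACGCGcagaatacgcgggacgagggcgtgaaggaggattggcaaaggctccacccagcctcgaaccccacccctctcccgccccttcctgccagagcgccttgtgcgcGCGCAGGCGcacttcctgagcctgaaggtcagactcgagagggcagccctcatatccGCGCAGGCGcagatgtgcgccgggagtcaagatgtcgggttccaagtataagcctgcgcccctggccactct
Sdhaf3 promoter, chr6:6955768-6956067, plus strand: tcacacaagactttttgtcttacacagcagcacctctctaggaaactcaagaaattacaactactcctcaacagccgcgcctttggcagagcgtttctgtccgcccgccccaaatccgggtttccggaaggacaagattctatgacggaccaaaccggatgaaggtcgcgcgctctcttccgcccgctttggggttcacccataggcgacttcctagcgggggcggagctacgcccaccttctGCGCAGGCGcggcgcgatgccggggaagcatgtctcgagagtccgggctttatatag
Cox8b promoter, chr7:140900397-140900696, minus strand: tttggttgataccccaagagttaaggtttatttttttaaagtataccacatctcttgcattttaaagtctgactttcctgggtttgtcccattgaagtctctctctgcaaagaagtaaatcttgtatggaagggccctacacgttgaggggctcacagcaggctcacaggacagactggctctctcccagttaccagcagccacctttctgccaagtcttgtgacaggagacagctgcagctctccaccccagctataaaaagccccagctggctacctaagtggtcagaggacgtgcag
Cox6b2 promoter, chr7:4753045-4753344, minus strand: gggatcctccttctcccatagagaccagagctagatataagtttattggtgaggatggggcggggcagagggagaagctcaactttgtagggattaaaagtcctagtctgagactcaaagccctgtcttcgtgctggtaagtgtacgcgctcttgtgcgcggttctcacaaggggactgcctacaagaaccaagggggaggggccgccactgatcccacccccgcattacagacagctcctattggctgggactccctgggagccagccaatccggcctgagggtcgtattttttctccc
Cox8a promoter, chr19:7217567-7217866, minus strand: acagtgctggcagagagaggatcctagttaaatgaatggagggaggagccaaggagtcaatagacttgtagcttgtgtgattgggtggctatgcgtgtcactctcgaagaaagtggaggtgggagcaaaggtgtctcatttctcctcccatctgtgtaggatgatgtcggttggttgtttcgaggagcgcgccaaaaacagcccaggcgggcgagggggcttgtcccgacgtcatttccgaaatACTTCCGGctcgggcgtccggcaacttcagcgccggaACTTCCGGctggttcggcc

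Complex I is the largest complex and has more of these genes than any other. Its 34 subunit genes had a median log2 fold of 0.13 in GFP+++ against GFP-, with 25 above 0 and a range of -0.15 (Ndufb11) to 1.18 (Ndufb4). Those 25 were 73.5%, beside 50.7% of all genes. Of all genes between 1000 and 10000 units of mean signal, 60.5% to 66.0% were above 0, depending on the bin of signal. The other probe sets of Ndufb11 gave log2 folds of 0.07 and -0.03. Ndufa1, an accessory subunit of the membrane arm and the brightest by mean signal, was at 10331 in GFP+++, 9540 in GFP+ and 10179 in GFP-. Ndufb9, also of the membrane arm, was at 9455 in GFP+++, 7951 in GFP+ and 8619 in GFP-. Its second bright probe set read 8302 in GFP+++, 6852 in GFP+ and 6221 in GFP-. The log2 fold of GFP+ over GFP- was -0.12 on the first and 0.14 on the second. Neither gene reached 1.5-fold in any comparison.

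Ndufb4, an accessory subunit of the same arm, had the highest fold of the complex. It was at 454 in GFP+++, 326 in GFP+ and 200 in GFP-, a fold of 2.27 for GFP+++ over GFP-. That probe set is the only one annotated to Ndufb4 alone. A pair of probe sets annotated jointly to Ndufb4, Ndufb4b and Ndufb4c were left out by the rule, and were looked at after these values were seen. One read 6497 in GFP+++, 6648 in GFP+ and 5456 in GFP-, a log2 fold of 0.25 for GFP+++ over GFP-. The other read 4401 in GFP+++, 4403 in GFP+ and 4037 in GFP-, a log2 fold of 0.12. The call therefore rests on 1 probe set, and with a floor at the 65th percentile of signal its log2 fold was 0.72, under the threshold.

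The assembly factors of complex I had larger folds, in the median, than the subunits they assemble. All 8 complex I assembly factors were above 0 in GFP+++ against GFP-, with a median log2 fold of 0.48 and a range of 0.19 to 0.75. Ndufaf5, a hydroxylase that modifies the subunit Ndufs7, was at 1003 in GFP+++, 828 in GFP+ and 598 in GFP-, a fold of 1.68 for GFP+++ over GFP-. Ndufaf6, needed for an early assembly step, was at 709 in GFP+++, 546 in GFP+ and 449 in GFP-. Ndufaf4, which acts together with Ndufaf3, was at 3047 in GFP+++, 2588 in GFP+ and 2077 in GFP-. Its second probe set was at 2817 in GFP+++, 2290 in GFP+ and 1922 in GFP-. In these 3 genes the signal was highest in GFP+++ and lowest in GFP-. Ndufaf8, a partner of Ndufaf5, had the smallest fold of the group at 1713 in GFP+++, 1776 in GFP+ and 1498 in GFP-.

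Ndufaf1, a member of an assembly complex for the membrane arm, was at 1603 in GFP+++, 1470 in GFP+ and 1142 in GFP-. Ndufaf7, a mitochondrial methyltransferase, was at 1111 in GFP+++, 1100 in GFP+ and 854 in GFP-. Ndufaf2, a late-acting chaperone, was at 326 in GFP+++, 257 in GFP+ and 235 in GFP-. Ndufaf3 was at 3908 in GFP+++, 3274 in GFP+ and 3350 in GFP-. All but Ndufaf3 were also higher in GFP+ than in GFP-, by a median log2 fold of 0.30 over the 8.

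In complex II, too, the median fold of the assembly factors exceeded that of the subunits. Its 4 assembly factors were all above 0 in GFP+++ against GFP-, with a median of 0.45, while its 4 subunits had a median of -0.01. Sdhaf3, which protects the iron-sulfur subunit Sdhb during its maturation, was at 2533 in GFP+++, 1512 in GFP+ and 1252 in GFP-, a fold of 2.02 for GFP+++ over GFP-. Its other probe set was under the floor on every array. With the median over probe sets in place of the brightest, the log2 fold was 0.63 in place of 1.02, and after quantile normalization it was 0.94, so the call ends under either. Sdhaf4, which hands Sdha to Sdhb, was at 5057 in GFP+++, 3980 in GFP+ and 3509 in GFP-. Sdhaf1, an assembly factor for the iron-sulfur clusters of Sdhb, was at 1612 in GFP+++, 1424 in GFP+ and 1241 in GFP-.

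Sdhaf2, which attaches the flavin to Sdha, had its highest signal in the weakly fluorescent cells, with 1168 in GFP+++, 1461 in GFP+ and 1067 in GFP-. Its second probe set read 632 in GFP+++, 682 in GFP+ and 505 in GFP-. The subunit Sdhd, a membrane anchor, was also highest there, at 2360 in GFP+++, 3272 in GFP+ and 2532 in GFP-, but a second and dimmer probe set read 270 in GFP+++, 249 in GFP+ and 256 in GFP-. The catalytic subunit Sdha was at 4134 in GFP+++, 4676 in GFP+ and 4402 in GFP-. Sdhb was at 8016 in GFP+++, 7750 in GFP+ and 6560 in GFP-. Sdhc, the other membrane anchor, was at 3929 in GFP+++, 4040 in GFP+ and 3726 in GFP-, but its second probe set read 2413 in GFP+++, 1865 in GFP+ and 2643 in GFP-. On the probe sets used, all 4 subunits were above 0 in GFP+ against GFP-, by 0.09 to 0.37 on the log2 scale. The second probe sets of Sdhc and Sdhd gave -0.50 and -0.04. Of all genes, 48.8% were above 0 in that comparison.

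**Figure D2:**
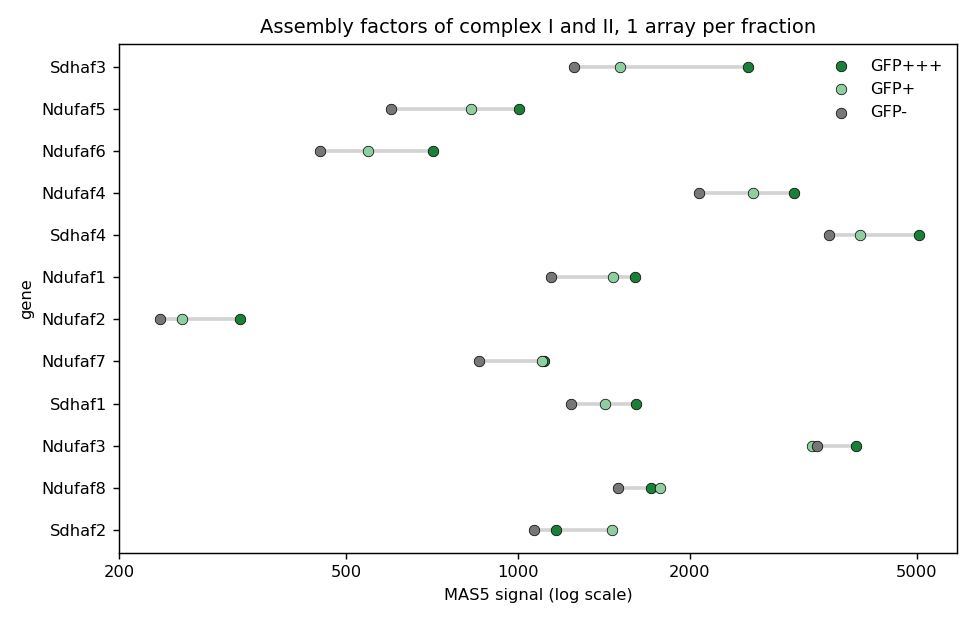
MAS5 signal (log axis) of the 12 assembly factors of complex I and II on the 3 arrays; each point is 1 array, and genes are ordered by the log2 fold of GFP+++ over GFP-. The GFP+++ point lies right of the GFP- point for all 12 genes.

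Taken as 1 group, the 12 assembly factors were all above 0 in GFP+++ against GFP-, with a median log2 fold of 0.48. It was 0.89 with the arrays scaled to a common median, where the median of all genes was 0.42, and 0.44 after quantile normalization, where that of all genes was 0.05; all 12 were above the median of all genes under each scaling. The group is moderately bright, and folds of all genes depended on signal, so genes of like signal were set beside them, a comparison added after these values were seen. Between 1000 and 2000 units of mean signal, the 6 assembly factors had a median of 0.38 and 2241 genes a median of 0.14. All 6 were above 0, beside 64.1% of the 2241 genes. Between 2000 and 5000 units, the 3 assembly factors had a median of 0.53, the 24 structural subunits 0.11 and all 1857 genes 0.14. There all 3 were above 0, beside 75% of the subunits and 66.0% of all genes.

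Assembly factors named outside the Nduf and Sdh symbols leaned the same way. Of 31 measured (for complexes I, III, IV and V), 26 were above 0 in GFP+++ against GFP-, with a median log2 fold of 0.30. Those 26 were 83.9%, beside 50.7% of all genes. Among genes of like signal the gap varied. From 104 to 500 units of mean signal, 85.7% of these factors were above 0, beside 38.1% of all genes. From 500 to 1000 units it was 66.7% beside 55.4%, and from 1000 to 2000 units 88.9% beside 64.1%. From 2000 to 5000 units it was 100% beside 66.0%. Tmem126b, of the same assembly complex as Ndufaf1, was at 247 in GFP+++, 189 in GFP+ and 105 in GFP-, a fold of 2.35 for GFP+++ over GFP-. It was the only one of the 31 called higher, and none was called lower, beside 1.92% and 12.4% of all genes. Its GFP- signal lay just above the floor. The summed signal of the immature neuron markers was highest, and the sums of cell cycle genes and fibroblast markers lowest, in the same fraction. Not all immature neuron markers went that way, as given above. The part of these cells in the values of the assembly factors was not tested.

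**Figure D3:**
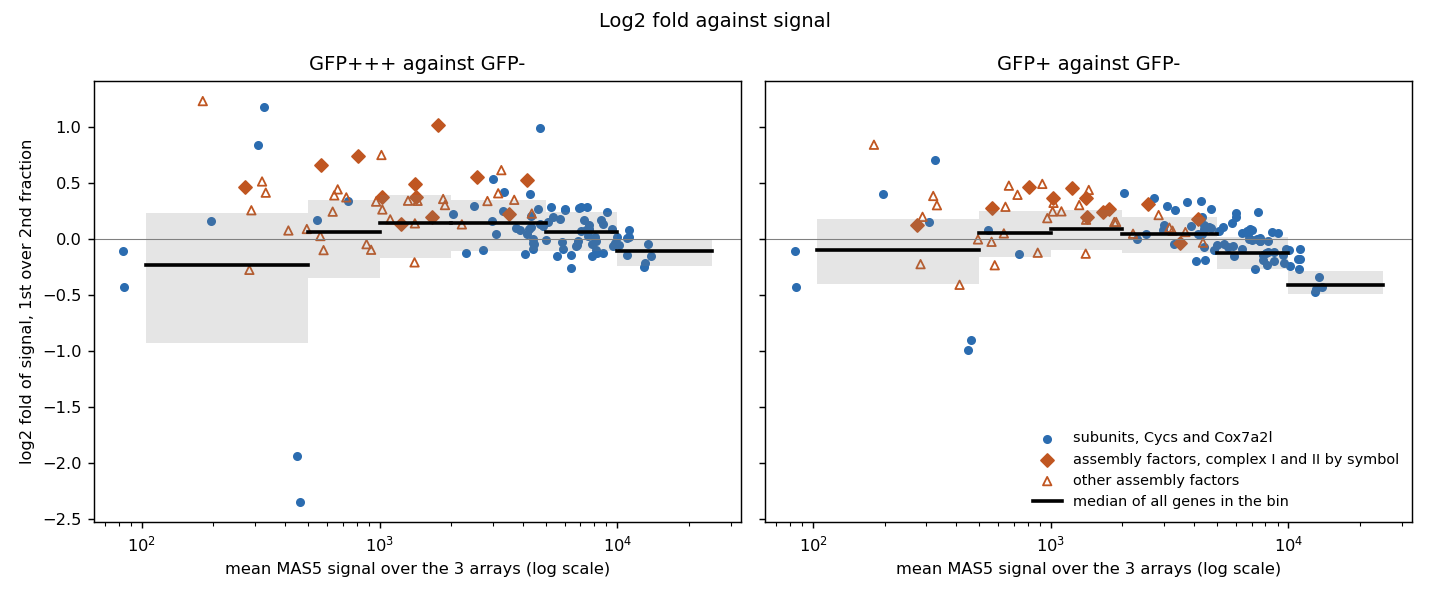
Log2 fold of GFP+++ over GFP- (left) and of GFP+ over GFP- (right) against mean signal over the 3 arrays (log axis), 1 point per gene; black lines are medians of all genes in a bin of signal and grey boxes their quartiles, and the pair of circles under 104 are bounds. Diamonds, the 12 assembly factors of complex I and II, all lie above 0 on the left; at 10000 units or more on the right, 10 subunits had a median of -0.25 and all 126 genes -0.41.

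Complexes III and V, with cytochrome c, were nearly level. The 9 complex III genes had a median log2 fold of 0.07 in GFP+++ against GFP-, and a range of -0.15 (Uqcrb) to 0.27 (Cyc1). Cyc1, the haem subunit that reduces cytochrome c, was at 6417 in GFP+++, 6271 in GFP+ and 5327 in GFP-. Uqcrb, which binds ubiquinone, was at 14150 in GFP+++, 11677 in GFP+ and 15704 in GFP-. Its second probe set read 3346 in GFP+++, 2649 in GFP+ and 2876 in GFP-, a log2 fold of 0.22 for GFP+++ over GFP-. Cycs itself, the mobile electron carrier, was at 8311 in GFP+++, 6112 in GFP+ and 7365 in GFP-, lowest in GFP+. With the median over probe sets, its log2 fold of GFP+ over GFP- was 0.16 in place of -0.27, so that order depends on the probe set.

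Among the 17 complex V genes, 8 were above 0 and 9 below in GFP+++ against GFP-, and the median was -0.01. The exception in size was Atp5md, a small subunit of the membrane part that helps ATP synthase dimers form. It was at 6744 in GFP+++, 4093 in GFP+ and 3390 in GFP-, a fold of 1.99 for GFP+++ over GFP-, just under the threshold. No other complex V gene passed 1.5-fold. Atp5g3, a gene of the c ring and the brightest of the complex by mean signal, was at 12770 in GFP+++, 10957 in GFP+ and 15209 in GFP-. Atp5pb, the stator subunit b, was at 11755 in GFP+++, 9675 in GFP+ and 11665 in GFP-. Its second probe set read 6041 in GFP+++, 5596 in GFP+ and 5372 in GFP-. The log2 fold of GFP+ over GFP- was -0.27 on the first and 0.06 on the second.

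The genes encoding subunit c give the same mature protein with different import sequences. Atp5g1 was at 2188 in GFP+++, 2379 in GFP+ and 2382 in GFP-. Atp5g2 was at 4009 in GFP+++, 3848 in GFP+ and 4399 in GFP-. The log2 fold of Atp5g1 exceeded that of Atp5g3 by 0.13 in GFP+++ against GFP- and by 0.47 in GFP+ against GFP-, but by -0.13 and -0.014 after quantile normalization. Atp5g2 exceeded Atp5g3 by 0.12 and 0.28, and by -0.15 and -0.13 after quantile normalization. In neither comparison did the differences keep their sign under that scaling.

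Complex IV held both genes that were called lower, and each is a tissue isoform. Cox8b, the isoform of subunit 8 found in heart, skeletal muscle and brown fat, was at 156 in GFP+++, 428 in GFP+ and 798 in GFP-. It was 5.10-fold lower in GFP+++ than in GFP- and 1.87-fold lower in GFP+ than in GFP-. The common isoform Cox8a was at 5763 in GFP+++, 6495 in GFP+ and 6897 in GFP-, with a second bright probe set at 5581 in GFP+++, 6227 in GFP+ and 6434 in GFP-. The log2 fold of Cox8b minus that of Cox8a was -2.09 in GFP+++ against GFP- and -0.81 in GFP+ against GFP-.

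Cox6b2, the isoform of subunit 6B best known from testis, was at 200 in GFP+++, 385 in GFP+ and 767 in GFP-. It was 3.84-fold lower in GFP+++ than in GFP- and 1.99-fold lower in GFP+ than in GFP-. Its common counterpart Cox6b1 was at 9923 in GFP+++, 8721 in GFP+ and 8389 in GFP- on the probe set used, and at 7229 in GFP+++, 6650 in GFP+ and 7547 in GFP- on the other. The log2 fold of Cox6b2 minus that of Cox6b1 was -2.18 in GFP+++ against GFP-, -1.05 in GFP+ against GFP- and -1.13 in GFP+++ against GFP+. Cox8b and Cox6b2 had 1 probe set each, and both were lowest in GFP+++ and highest in GFP-. Their difference between GFP+++ and GFP- stayed past the 2-fold threshold under every scaling and floor tried. Both are dim, with mean signals of 461 for Cox8b and 451 for Cox6b2, where lower folds are common. The 4251 genes between 104 and 500 units had a median log2 fold of -0.23 in GFP+++ against GFP-. Their quartiles were -0.93 and 0.24, beside -2.35 for Cox8b and -1.94 for Cox6b2. Between 5000 and 10000 units, where Cox8a and Cox6b1 lie, the median of all genes was 0.06.

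Cox8c, the testis isoform of subunit 8, was highest in GFP+++ on the probe set used, at 426 in GFP+++, 263 in GFP+ and 237 in GFP-. Its fold for GFP+++ over GFP- was 1.79, and its log2 fold exceeded that of Cox8a by 1.10. The other Cox8c probe set, near the floor, read 127 in GFP+++, 56.6 in GFP+ and 105 in GFP-. After quantile normalization the log2 fold was 1.04, past the threshold, and 1.26 with a common median. With the median over probe sets, the log2 fold of Cox8c was 0.56 in GFP+++ against GFP- and -0.37 in GFP+ against GFP-, so its order over the fractions depends on the probe set.

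**Figure D4:**
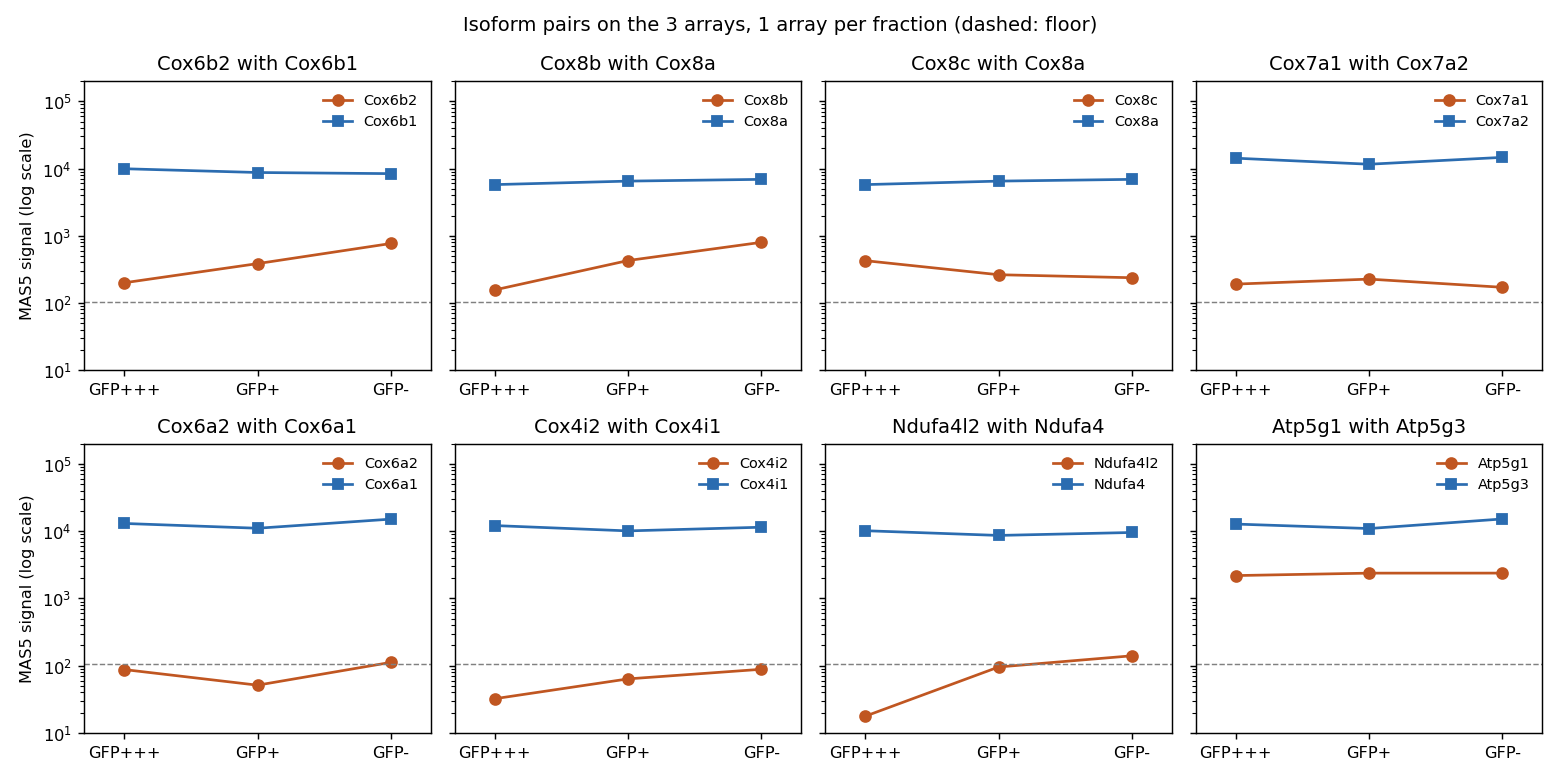
MAS5 signal (log axis) on the 3 arrays for 8 pairs, with the tissue isoform as circles, its common counterpart as squares and the floor of 104 as a dashed line. The Cox6b2 and Cox8b lines climb toward GFP- while those of Cox6b1 and Cox8a stay nearly flat; levels of different probe sets cannot be set against each other, only their slopes.

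The other tissue isoforms were near or under the floor. Cox7a1, the heart and muscle isoform of subunit 7A, was at 191 in GFP+++, 226 in GFP+ and 171 in GFP-, while the common Cox7a2 was at 14238 in GFP+++, 11578 in GFP+ and 14647 in GFP-. Cox6a2, the heart and muscle isoform of subunit 6A, was at 87.6 in GFP+++, 51.3 in GFP+ and 112 in GFP-, above the floor only in the last. Ndufa4l2, a paralogue of Ndufa4 induced by low oxygen, also passed only there, at 17.7 in GFP+++, 95.6 in GFP+ and 140 in GFP-, a difference of at least 1.34-fold, lower in GFP+++. Ndufa4 itself, now counted with complex IV, was at 10171 in GFP+++, 8655 in GFP+ and 9573 in GFP-. Cox4i2, the lung isoform of subunit 4, and Cox7b2 were under the floor on every array, as was Cyct, the testis cytochrome c. Of these genes only Cox7a1 could be compared in full, and its log2 fold in GFP+ against GFP- exceeded that of Cox7a2 by 0.74, or by 0.37 after quantile normalization.

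Markers of the cells in which these isoforms are known were read on the same arrays. Of 9 skeletal muscle markers, 8 were under the floor on all arrays, Ckm and Acta1 included; the other, Mylpf, was at 152 in GFP+++, 146 in GFP+ and 121 in GFP-. The 9 summed to 430 in GFP+++, 357 in GFP+ and 402 in GFP-. Of 4 brown fat markers, Ucp1 and Fabp4 were under the floor on all arrays, Adipoq was above it only in GFP+++ at 116, and Cidea was at 328 in GFP+++, 1322 in GFP+ and 1385 in GFP-. The 4 summed to 465 in GFP+++, 1403 in GFP+ and 1457 in GFP-. The 8 pericyte and smooth muscle markers were all below 0 in GFP+++ against GFP-, and they summed to 4271 in GFP+++, 13954 in GFP+ and 21801 in GFP-. Summed markers of fibroblasts, macrophages and neutrophils, ensheathing glia, Bowman glands, basal cells and sustentacular cells also stood lowest in GFP+++ and highest in GFP-, while those of respiratory ciliated cells, given above, were lowest in GFP-. Cox8b and Cox6b2 likewise stood lowest in GFP+++ and highest in GFP-. Ndufa4l2 was above the floor only in GFP-, so GFP+++ and GFP+ cannot be ordered for it. The part of these cell types in the values of the 3 genes was not tested.

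The 75 structural subunit genes that are not tissue isoforms had a median log2 fold of 0.08 in GFP+++ against GFP- and a range of -0.26 to 1.18, with Ndufb4 and Atp5md the only ones past 1.5-fold. The whole of complex IV had a median of -0.05 over the 16 genes measured there, or 0.13 after quantile normalization. The supercomplex factor Cox7a2l, which joins complexes III and IV, was at 4309 in GFP+++, 4688 in GFP+ and 4300 in GFP-. None of the 13 subunits encoded in mitochondrial DNA had a probe set under its own symbol, and they were not analysed here.

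In the weakly fluorescent cells no respiratory chain gene was called. Of 94 respiratory chain genes measured in GFP+ against GFP-, 0 were called in either direction at 2-fold, beside 0.607% of all genes called higher and 0.804% called lower. At 1.5-fold, Ndufb4 was higher, and Cox6b2 and Cox8b were lower, beside 4.67% and 7.13% of all genes. The median log2 fold was 0.03, against -0.01 for all genes. Subunit medians were 0.05 for complex I, 0.18 for complex II, 0.00 for complex III, -0.16 for complex IV and -0.07 for complex V. After quantile normalization those of complex IV and V were 0.13 and 0.09, so no direction is given for either.

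Between the fluorescent fractions, GFP+++ against GFP+, 92 respiratory chain genes were measured. None was called higher, beside 0.985% of all genes, and 1 was called lower, Cox8b, beside 9.33%. With a floor at the 65th percentile the log2 fold of Cox8b was -0.64 in place of -1.45, under the threshold. At 1.5-fold, Sdhaf3, Atp5md and Cox8c were higher, and Cox8b and Cox6b2 were lower, beside 6.39% and 18.1% of all genes. The assembly factors had a median log2 fold of 0.25, with 10 of 12 above 0. All 92 genes had a median of 0.08 with 71 above 0, but after quantile normalization the median was -0.07 with 32 above 0. The 71 were 77.2%, beside 47.9% of all genes and 77.1% of genes between 5000 and 10000 units of mean signal.

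Regulators that drive transcription of respiratory genes were read on the same arrays. Ppargc1a, a coactivator of mitochondrial biogenesis, was at 465 in GFP+++, 1324 in GFP+ and 781 in GFP-. Its relative Ppargc1b was at 206 in GFP+++, 672 in GFP+ and 438 in GFP-. Both peaked in the weakly fluorescent cells, where they were at least 2-fold above GFP+++: the log2 fold of GFP+++ over GFP+ was -1.51 for Ppargc1a and -1.70 for Ppargc1b. Of the 16 regulators listed, these 2 were called lower in that comparison and no other was called, beside 9.33% of all genes called lower. Ppargc1b was also called in GFP+++ against GFP-, with a log2 fold of -1.09, or -0.67 with a common median. It was the only 1 of the 16 called there, beside 12.4% of all genes called lower. Nrf1, a transcription factor of many respiratory genes, was at 1205 in GFP+++, 901 in GFP+ and 652 in GFP-. Its log2 fold of 0.89 in GFP+++ against GFP- was the highest of the 16. Their median was 0.05, with 10 above 0 and 6 below, or 62.5% above 0 beside 50.7% of all genes. The GABP genes Gabpb1 and Gabpa had log2 folds of 0.70 and 0.006. Nrf1, Gabpb1 and Gabpa were named after their values were seen.

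The promoters printed above can be set beside these regulators. The Ndufb4 window held 3 NRF1 matches, first bases at -191, -79 and -22 from the start, and that of Sdhaf3 held 1, at -7. The Cox8a window held 2 ETS matches, at -6 and 32. Neither Cox8b nor Cox6b2 had these letters in its window, and nor did Cox6b1, the common partner of Cox6b2. The windows also differed in CpG content. The observed over expected ratio was 0.11 for Cox8b and 0.43 for Cox6b2, with 0.84 for Cox8a and 0.81 for Cox6b1. Its median was 0.83 over the 84 windows of the 79 genes, and 0.38 over the 32851 windows of all 27025 genes with a window.

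Over the 79 genes, 23 held the NRF1 motif, or 29.1%, against 7.03% of all genes with a window. The YY1 motif AAGATGGCG was in 7, or 8.86%, against 1.64%, and the GABP or ETS motif in 5, or 6.33%, against 4.31%. By complex, the NRF1 motif was in 7 of 15 complex V genes, 6 of 31 complex I genes and 1 of 12 complex IV genes. CG-rich windows hold the letters of the NRF1 motif more readily, and this was not adjusted for. In GFP+++ against GFP-, the 23 genes with it had a median log2 fold of 0.09 and the 55 measured genes without it 0.10. The medians were 0.0016 with it and 0.05 without it in GFP+ against GFP-, and 0.22 with it and 0.06 without it in GFP+++ against GFP+. No test was made of these differences.

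**Figure D5:**
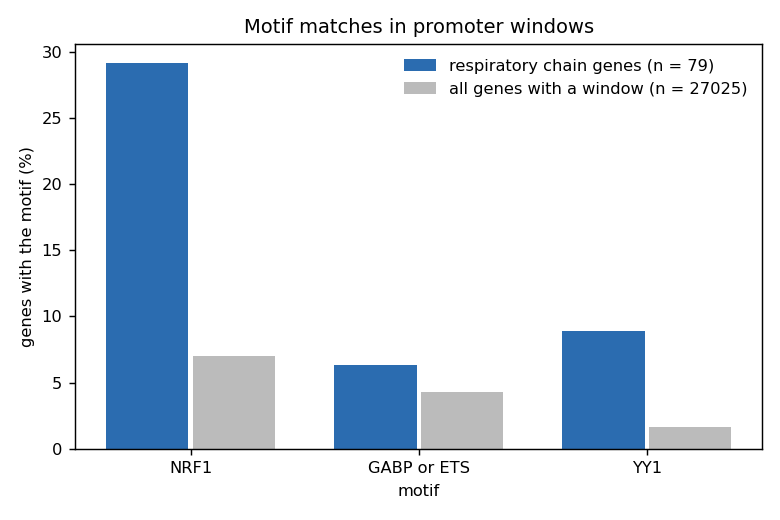
Share of genes (percent) whose 300-base promoter window holds each motif, for the respiratory chain genes with a window and for all genes with a window. The NRF1 bars stand at 29.1% and 7.03%.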

How the data were processed

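Biotin-labelled cRNA from total RNA of each sorted fraction was hybridised by the authors to 1 Affymetrix array, per the labels' protocols. The table holds deposited MAS5 signal intensity on a linear scale for every probe set, per the submitters' processing notes. Its MAS5 version is not given in the sources used here, and detection calls were not used. Among 45101 probe sets, the 34945 with a single symbol in the platform annotation were used; 932 carried several symbols, 9211 carried none and 64 were controls. All 96 respiratory chain genes matched RefSeq by gene ID, and 0 symbols changed.

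Signals were scaled to 1 trimmed mean (2% trim; as deposited, 500.002 on each array), floored at the pooled median of 104.379 and put on log2. A gene with no array above the floor in a comparison was not counted, and a fold with 1 array under it is a bound. Calls need 2-fold. With 1 array per fraction there is no test. Genes named are those called, those of isoform pairs, and the brightest and the extreme genes of each complex; further genes were named with their values in view. The genes and lists were chosen with earlier results of these data known. Values were computed with Python 3.11.15, numpy 2.4.6 and pandas 2.3.3, and the scripts were checked on simulated data. Promoter sequences are from RefSeq. Other scalings, floors, probe set choices and a 1.5-fold threshold were tried.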

Additional observations from a re-analysis of the deposited data

How the results depend on the processing

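With 1 array per fraction, no array could be left out and nothing measures biological spread; a value counted as moved when it shifted by more than the SD between probe sets of a gene (0.30, 0.24 and 0.30 for the 3 comparisons) or, for a count, by over 1.5 times. No paired analysis was possible because each fraction has 1 array and no result comes from a test. No called value changed sign. Leaving out probe sets that may cross-hybridise (91 genes left) moved none of the 52 counts, medians and pair differences. Under it, 4 values for single genes moved and 156 did not. Dim genes, and the shape of the signal distribution, limit what can be read: at a common median the lower share of all genes' calls is 48.2% in place of 86.6% for GFP+++ against GFP-, 26.1% in place of 57.0% for GFP+ against GFP-, and 65.1% in place of 90.5% for GFP+++ against GFP+.

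At a common median in GFP+++ against GFP-, 6 respiratory chain genes were higher, and medians were 0.50 for all, 0.54 for complex I, 0.89 for its assembly factors, 0.41 for complex II, 0.87 for its assembly factors, 0.49 for complex III, 0.37 for complex IV and 0.41 for complex V. All genes had a median of 0.42 there, and relative to it the respiratory chain genes had 0.09, against 0.08 as reported. In GFP+++ against GFP+, 1 was higher. After quantile normalization in GFP+ against GFP-, 1 gene was lower, complex IV had a median of 0.13, and pair differences were -1.35 for Cox6b2, 0.37 for Cox7a1, -0.014 for Atp5g1 and -0.13 for Atp5g2. In GFP+++ against GFP+ they were -0.70 for Cox6b2, -0.033 for Cox7a1, -0.86 for Cox8b and 1.19 for Cox8c. With a floor at the 65th percentile, GFP+++ against GFP- had 1 gene higher and pair differences of -1.72 for Cox6b2 and -1.28 for Cox8b; GFP+++ against GFP+ had 0 lower, with -0.67 and -0.46. With no floor, 4 were lower in GFP+++ against GFP-, 1 higher and 1 lower in GFP+ against GFP-, and 3 lower in GFP+++ against GFP+; the Ndufa4l2 difference was -3.07 in GFP+++ against GFP- and that of Cox6a2 -0.68 in GFP+ against GFP-, both from signals under the floor. With the median over probe sets, GFP+++ against GFP- had 1 gene higher, and the Cox8c difference was 0.77, and -0.32 in GFP+ against GFP-. At 1.5-fold, 6 were higher in GFP+++ against GFP-, 1 higher and 2 lower in GFP+ against GFP-, and 3 higher and 2 lower in GFP+++ against GFP+. Of the values for single genes, 842 stayed within the limit and 98 moved. The floor and the threshold act by construction; otherwise the cause was not tested.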

Other observations

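Other mitochondrial functions were measured on the same arrays. The 9 antioxidant genes measured had a median log2 fold of 0.05 in GFP+++ against GFP-. Of them 6, or 66.7%, were above 0, beside 50.7% of all genes. Cat, the peroxisomal catalase, was at 359 in GFP+++, 838 in GFP+ and 1279 in GFP-. Gpx1, a glutathione peroxidase, was at 1702 in GFP+++, 2849 in GFP+ and 3811 in GFP-. These 2 of the 9 were called lower in GFP+++ against GFP-, beside 12.4% of all genes. With a common median the log2 fold of Gpx1 was -0.75 in place of -1.16. Sod1, the cytosolic superoxide dismutase, was at 7727 in GFP+++, 8127 in GFP+ and 10548 in GFP-.

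Enzymes of the citric acid cycle and pyruvate dehydrogenase were near level, with a median log2 fold of -0.05 over 16 genes in GFP+++ against GFP-. Suclg2, the GTP-forming subunit of succinyl-CoA ligase, was at 703 in GFP+++, 1189 in GFP+ and 1601 in GFP-. It was the only 1 of the 16 called, lower in GFP+++ than in GFP-, beside 12.4% of all genes called lower. With a common median its log2 fold was -0.77 in place of -1.19. The 10 carriers and channels measured had a median of -0.04, with Slc25a5, an ADP and ATP carrier, at 8449 in GFP+++, 9120 in GFP+ and 10293 in GFP-. Genes of protein import and cristae had a median of 0.12 over 19 genes, none called, and the import receptor Tomm20 was at 8716 in GFP+++, 6756 in GFP+ and 8767 in GFP-.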
